A study of Mus musculus with 30 samples.

Results

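The mesothelial marker genes are 10 genes, Msln, Upk3b, Upk1b, Krt19, Krt8, Krt18, Wt1, Lrrn4, Muc16 and Nkain4, of the 36558 genes in the expression table. They are known markers of one cell type, the mesothelial cell, and were looked up by symbol; all 10 were found and all 10 had enough reads to be tested in both tissues. Transcripts were sequenced in hearts and white adipose tissue taken at 15 weeks of age, from C57BL/6J males. The F11 groups (7 heart and 8 adipose libraries) had been injected with AAV8-F11, an adeno-associated virus vector carrying the gene of coagulation factor XI, and the GFP groups (6 heart and 8 adipose libraries) with the control vector AAV8-GFP. Mice of all 4 groups ate, for 7 weeks, an HFD (high-fat diet) together with l-NAME, which blocks nitric oxide synthases, so no group was free of diet, inhibitor or virus. AAV8 is known mainly for entering hepatocytes; the vectors' promoter and the adipose depot are not stated in the labels. Nor do the labels tie each library to its own mouse, so p-values measure only the spread between these libraries, which may be technical.

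Mesothelium is the single layer of flattened epithelial cells that covers the heart and lungs, the abdominal organs and the walls of their cavities. Visceral fat pads carry it on their surface, and on the heart it forms the epicardium, which covers atria and ventricles. Mesothelial cells keep the sliding surfaces moist and combine an epithelial keratin skeleton with some properties of connective tissue cells. Mesothelin (Msln) is a lipid-anchored surface protein that binds the large mucin Muc16. Upk3b and Upk1b are uroplakins, membrane proteins best known from the bladder lining. Krt8 is a type II keratin that pairs with the type I keratins Krt18 and Krt19 in the filaments of simple epithelia. Wt1 is a zinc finger transcription factor of the epicardium and the kidney's podocytes, Lrrn4 a membrane protein with leucine-rich repeats, and Nkain4 a membrane protein of a family that interacts with the sodium pump.

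Heart libraries held 28064802 to 33022539 estimated counts in F11 and 25751607 to 30591023 in GFP, and adipose libraries 16755479 to 26329117 in F11 and 15949550 to 22525275 in GFP. Levels are given below as CPM, counts scaled to a common library size among the libraries of 1 tissue. CPM is not divided by transcript length, so levels of different genes are not compared. The vector's own gene was of little use as a check in heart. There F11 transcripts were listed at 0 in 5 of 7 F11 and 4 of 6 GFP libraries. In adipose tissue its median was 5.93 CPM in F11 (0.514 to 16.1) and 0.475 CPM in GFP libraries (0 to 4.69), so the groups overlapped. Some adipose libraries also held hepatocyte transcripts, given below, and their part in these levels was not tested. The tissue labels held: summed transcripts of 10 white adipocyte genes had medians of 30403 CPM in F11 and 28637 CPM in GFP adipose libraries, and those of 5 ventricular genes medians of 41851 CPM in F11 and 35269 CPM in GFP hearts. Some libraries stood apart. The F11 adipose library L142 held 8698 CPM summed over 12 genes of the male reproductive tract, led by Adam7 at 2992 CPM, where the median adipose library held 1.32 CPM, and the F11 library L143 held 23.4 CPM. Summed hepatocyte transcripts reached 5446 CPM in F11 library L145, 2861 CPM in F11 library L146 and 5923 CPM in GFP library L136, against a median of 195 CPM. The GFP adipose library L140 held 6874 CPM of ventricular transcripts, led by Myh6 at 4126 CPM, and the GFP heart library L2 held 184 CPM of hepatocyte transcripts. Library numbers run in separate blocks for the 4 groups, so any order of processing that they record cannot be told apart from the groups.

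In heart, every one of the 10 markers had a lower fitted level in F11 than in GFP hearts, and none of the differences passed the test. The question was whether the vector changed expression in the heart, and each gene was tested with edgeR's quasi-likelihood test, with p-values adjusted over all 14684 genes tested. Negative fold changes were fitted for 52.5% of all genes. None of the 10 markers was called at an adjusted p under 0.05, where 0.872% of all genes were called in either direction and 0.354% as lower. By limma's voom the count was also 0 of 10, and by DESeq2 0 of the 7 markers to which it gave an adjusted p; it gave none to Upk1b, Krt8 and Nkain4. At an unadjusted p under 0.05 the count was 6 of 10, all of them lower in F11, against 12.5% of all genes in either direction and 6.24% lower in F11. Most markers varied together over these hearts (median r 0.76 over their pairs, given below). Counts of markers with the same sign or a low p are therefore not counts of independent results. The median log2 fold change of the markers was -1.14, beside -0.01 over all genes tested. In bulk tissue, fewer cells of a type and less RNA per cell cannot be told apart.

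The surface and secreted markers were among those with negative fold changes. Msln stood at 0.595 to 1.81 CPM in F11 hearts (median 1.16) and at 0.682 to 3.9 CPM in GFP hearts (median 2.2). All 7 F11 hearts lay under the GFP median, yet the groups overlapped, and the log2 fold change was -0.85 with SE 0.35 (adjusted p = 0.334). Its partner Muc16 stood at 0.036 to 1.94 CPM in F11 hearts (median 0.656) and at 0.0696 to 3.3 CPM in GFP hearts (median 1.76), which gave a log2 fold change of -1.19 (adjusted p = 0.491, SE 0.65). Muc16 had the widest relative range of the markers in heart, 91.6-fold between the lowest and the highest library, and its lowest value rested on 1 estimated count. Lrrn4 had a median of 0.594 CPM in F11 hearts (0.18 to 1.5) and of 1.33 CPM in GFP hearts (0.139 to 2.62), a log2 fold change of -1.08 with SE 0.53 (adjusted p = 0.421). Nkain4 came nearest to the threshold, at 0.0719 to 0.41 CPM in F11 hearts (median 0.219) and 0.0696 to 0.842 CPM in GFP hearts (median 0.618), which gave a log2 fold change of -1.29 (adjusted p = 0.166, SE 0.41). A single GFP heart, library L8, overlapped the F11 range of Nkain4: the other 5 GFP hearts lay at or above 0.544 CPM, over all 7 F11 hearts.

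The uroplakins behaved likewise. Upk3b stood at 0.252 to 3.4 CPM in F11 hearts (median 1.53) and at 0.453 to 7.24 CPM in GFP hearts (median 3.43), a log2 fold change of -1.23 with SE 0.54 (adjusted p = 0.374). All but 1 of the F11 hearts lay under the lowest GFP heart other than L8, and the exception, L38, reached 3.4 CPM against 3.0 CPM in GFP library L2. Upk1b stood at 0.0719 to 0.55 CPM in F11 hearts (median 0.273) and at 0.139 to 1.22 CPM in GFP hearts (median 0.606), which gave a log2 fold change of -1.14 (adjusted p = 0.278, SE 0.44). Its F11 values all lay under the GFP median, and the groups overlapped.

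The keratins were scarce in heart, with a median of 9 estimated counts a library for Krt8, 11 for Krt19 and 17 for Krt18, so counting error is large in each value. Krt19 stood at 0.0719 to 0.649 CPM in F11 hearts (median 0.154) and at 0.348 to 1.26 CPM in GFP hearts (median 0.703), a log2 fold change of -1.44 with SE 0.47 (adjusted p = 0.189). Of the 7 F11 hearts, 5 lay under every GFP heart. Krt8 had a median of 0.102 CPM in F11 hearts (0.0627 to 0.375) and of 0.464 CPM in GFP hearts (0.0607 to 0.593), which gave a log2 fold change of -1.14 (adjusted p = 0.305, SE 0.46). Krt18, its filament partner, differed less, with a median of 0.444 CPM in F11 hearts (0.252 to 1.12) and of 0.726 CPM in GFP hearts (0.0696 to 1.16), a log2 fold change of -0.39 (SE 0.43, 95% interval -1.3 to 0.52, adjusted p = 0.775). Krt18 and Wt1 had the smallest fold changes of the 10, and the intervals of Krt18, Wt1, Lrrn4 and Muc16 included 0.

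The transcription factor Wt1 stood at 3.47 to 5.13 CPM in F11 hearts (median 4.09) and at 3.34 to 9.8 CPM in GFP hearts (median 4.51), a log2 fold change of -0.29 (SE 0.22, 95% interval -0.76 to 0.18, adjusted p = 0.645). The GFP value of 9.8 CPM came from L8, and without that library the fold change was 0. L8 had the lowest level of the 6 GFP hearts in each of the other 9 markers, and F11 library L39 the lowest of the F11 hearts in those 9. Without L8 the fold changes of the other 9 were more negative, with Msln at -1.03. Nkain4 stood at -1.51 (SE 0.31, adjusted p = 0.0268) and was then called, the 1 marker of 10 that was. In that fit 124 of all genes tested were called, beside 128 with L8. Without L8, Nkain4 was also the 1 marker of 10 whose groups did not overlap, where 0.667% of all genes had F11 values all lower; with L8, no marker had groups that did not overlap, against 0.484% of all genes.

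**Figure D1:**
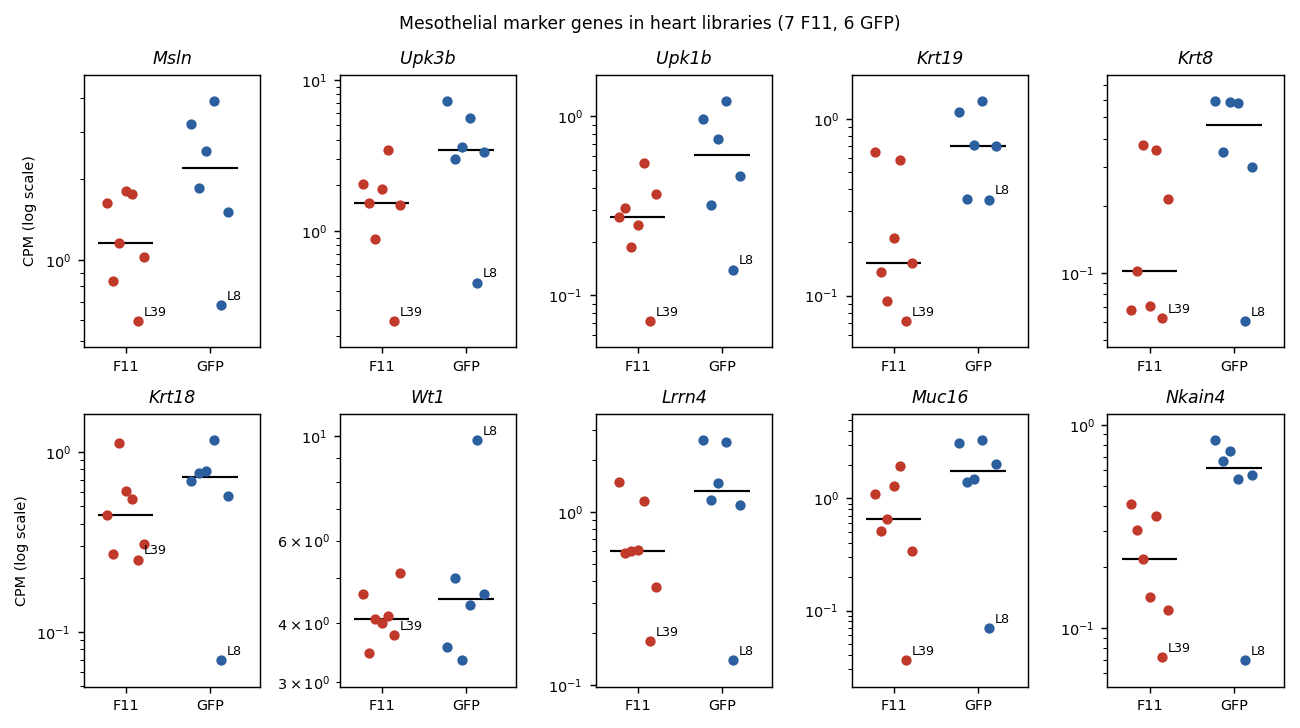
Level of each mesothelial marker gene in the 7 F11 and 6 GFP heart libraries, 1 point per library, in CPM on a log scale with its own range in each panel; black lines are group medians, and libraries L8 (GFP) and L39 (F11) are named. In Nkain4 the 7 F11 hearts stand at or under 0.41 CPM and the GFP hearts other than L8 at or over 0.544 CPM, and in Wt1 L8 stands alone at 9.8 CPM.

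Atrial transcripts moved with most of these markers. The summed CPM of 7 atrial genes (among them Myl7, Sln and Nppa) ran from 288 to 2790 in F11 hearts (median 862). In GFP hearts it ran from 52.3 to 3188 (median 1158). How much atrium each sample held was not measured, so atrial tissue and RNA per cell cannot be told apart in this sum. None of the 7 was at 0 in either group, L39 was lowest in F11 and L8 lowest in GFP. Upk3b followed the atrial sum over the 13 hearts with Pearson r = 0.84 (permutation p = 0.00024, adjusted over 30 relations p = 0.0036) and Spearman rho = 0.85 (permutation p = 0.00032, adjusted p = 0.0048), and r was 0.81 without the 2 hearts farthest from the median. Upk1b, Lrrn4, Muc16, Msln and Nkain4 also had r and rho with adjusted permutation p under 0.05, with r of 0.78, 0.84, 0.8, 0.75 and 0.72 and rho of 0.88, 0.78, 0.72, 0.69 and 0.68. Without the 2 farthest hearts their r was 0.81, 0.74, 0.68, 0.67 and 0.57. Krt19, Krt8 and Krt18 had r of 0.57, 0.58 and 0.61, each with an adjusted permutation p of 0.088. Their rho was 0.72, 0.68 and 0.37 (adjusted permutation p = 0.041, 0.045 and 0.48). The share of all genes that follow the atrial sum was not computed. Wt1 had r = -0.68 (permutation p = 0.029, adjusted p = 0.088) and rho = -0.28 (permutation p = 0.35, adjusted p = 0.59), and r was 0.08 without the 2 farthest hearts, so that relation rested on them.

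The atrial sum was also used as a covariate, an alternative added after the data were seen. All 10 fold changes kept their sign but became smaller in size, and their standard errors shrank. Upk3b went from -1.23 to -1.03 and Lrrn4 from -1.08 to -0.84. Upk3b was then at -1.03 (SE 0.17, adjusted p = 0.0061) and was called, the 1 marker of the 10 that was. Of all 14684 genes tested 162 were called with the covariate, beside 128 without it. Without L8 as well Upk3b was at -1.03 (SE 0.19, adjusted p = 0.0208), and 67 of all genes were called. Krt19 stood at -1.38 with an adjusted p of 0.052, and Nkain4 at -1.16 with an adjusted p of 0.0607. Ventricular transcripts also differed, at a summed 40256 to 45705 CPM in F11 hearts and 34131 to 37366 CPM in GFP hearts, with no overlap. The sum of 6 brown adipocyte genes ran from 990 to 2379 CPM in F11 hearts (median 1238) and from 1389 to 2098 CPM in GFP hearts (median 1706), and 5 of 7 F11 hearts lay under the lowest GFP heart. Hemoglobin and other red cell transcripts were highest in F11 library L40 at 3708 CPM and GFP library L8 at 4236 CPM, where the medians were 728 CPM in F11 and 793 CPM in GFP hearts. Wt1 followed the red cell sum with r = 0.75 (permutation p = 0.0071, adjusted p = 0.03), but with rho = 0.39 (permutation p = 0.19, adjusted p = 0.47) and with r = 0.02 without the 2 hearts farthest from the median, so that relation rested on them. None of the other 9 markers had an adjusted permutation p under 0.05 with the red cell sum. The part of ventricular and brown adipocyte content in the marker differences was not tested.

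Of 21 other genes listed for mesothelium and epicardium, 14 were tested in heart. None was called, 2 had positive and 12 negative fold changes, with a median log2 fold change of -0.18. The 4 with the lowest p were Tcf21, a transcription factor of epicardium-derived fibroblasts, at -0.4 (SE 0.1, adjusted p = 0.08), the sialomucin Podxl at 0.24 (SE 0.06, adjusted p = 0.0987), the simple epithelial keratin Krt7 at -0.58 (SE 0.23, adjusted p = 0.281) and the secreted Wnt pathway agonist Rspo1 at -0.45 (SE 0.22, adjusted p = 0.417).

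In adipose tissue no marker differed between the vectors by more than the test allows for the spread of the libraries. None of the 10 was called by edgeR's quasi-likelihood test, nor by DESeq2 or voom, and none had an unadjusted p under 0.05. Among all 15229 genes tested, 0.0% were called and 4.19% had an unadjusted p under 0.05. There were 3 positive and 7 negative fold changes, where 50.2% of all genes had negative ones, with a median of -0.07 on the log2 scale, beside 0 over all genes. The groups overlapped for every marker, as they did for all but 0.0197% of genes with F11 higher and 0.0% with F11 lower.

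Msln stood at 7.59 to 41.5 CPM in F11 adipose libraries (median 14.0) and at 5.72 to 40 CPM in GFP libraries (median 21.3), a log2 fold change of -0.15 (SE 0.41, 95% interval -1.02 to 0.71). Upk3b stood at 12.3 to 73.8 CPM in F11 (median 25.3) and at 10.7 to 66.6 CPM in GFP (median 30.9), a log2 fold change of -0.07 (SE 0.4, 95% interval -0.91 to 0.77). Wt1 stood at 4.77 to 17.3 CPM in F11 (median 8.12) and at 6.0 to 16.9 CPM in GFP (median 8.58), a log2 fold change of -0.11 (SE 0.29, 95% interval -0.73 to 0.51). In all 3 the ranges of the groups covered each other nearly whole. Lrrn4 at -0.02, Muc16 at -0.07, Nkain4 at -0.14 and Upk1b at 0.28 had standard errors of 0.35 to 0.39. The log2 fold changes fitted in heart lay outside the adipose 95% intervals of these 4 genes. The same held for Upk3b and for Krt19 (adipose interval -1.12 to 1.35), but not for Msln, Krt8, Krt18 and Wt1. The heart values have wide 95% intervals of their own, among them -2.22 to 0.06 for Lrrn4, -2.6 to 0.23 for Muc16, -2.15 to -0.42 for Nkain4 and -2.07 to -0.21 for Upk1b. The direct comparison of the tissues, given below, called none of them.

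Krt8 and Krt18 spread far more widely than the other markers. Krt8 stood at 1.12 to 77.9 CPM in F11 adipose libraries (median 4.4) and at 0.653 to 41.7 CPM in GFP libraries (median 12.6), a 119-fold range over the 16 libraries. Krt18 stood at 1.08 to 98.9 CPM in F11 (median 4.18) and at 0.534 to 36 CPM in GFP (median 7.92), a 185-fold range. Over the same libraries Msln spanned 7.26-fold, Upk3b 6.91-fold and Wt1 3.63-fold. The log2 fold changes were -0.1 for Krt8 (SE 0.95, 95% interval -2.12 to 1.92) and 0.63 for Krt18 (SE 1.0, 95% interval -1.49 to 2.76), so the interval of each gene held a 2-fold difference in either direction. Krt19 stood at 2.59 to 38.3 CPM in F11 (median 6.76) and at 1.6 to 20.5 CPM in GFP (median 9.46), a log2 fold change of 0.12 (SE 0.58).

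The highest value of all 3 keratins, and of Upk1b at 26.0 CPM, was in L142, the F11 library with male tract transcripts. Without L142 the log2 fold changes were -1.16 for Krt8, -0.73 for Krt18 and -0.5 for Krt19. Without the 5 libraries rich in male tract or hepatocyte transcripts (L142, L143, L145 and L146 of F11 and L136 of GFP) they were -2.25 for Krt8, -1.76 for Krt18 and -0.65 for Krt19. None was called either way. GFP libraries L138, L140 and L135 stayed in, with 51.6, 32.8 and 16.9 CPM of the other epithelial transcripts described below. The F11 libraries that stayed in held 1.97 to 3.56 CPM of them. The part of these transcripts in the fold changes was not tested. In Msln, Upk3b, Lrrn4, Muc16, Wt1 and Nkain4, L142 lay inside the range of the other libraries, at 15.3 CPM in Msln and 20.8 CPM in Upk3b. Of the other mesothelial and epicardial genes 19 were tested in adipose tissue, 10 with positive and 9 with negative fold changes, and none was called; the lowest p-values were those of dermokine, Dmkn, a secreted epithelial protein, at -0.99 (SE 0.45), the transcription factor Tbx18 at 0.16 (SE 0.09), the retinoic acid synthesis enzyme Aldh1a2 at -0.28 (SE 0.21) and Lrrn4cl at 0.16 (SE 0.12), each with an adjusted p of 0.9996.

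**Figure D2:**
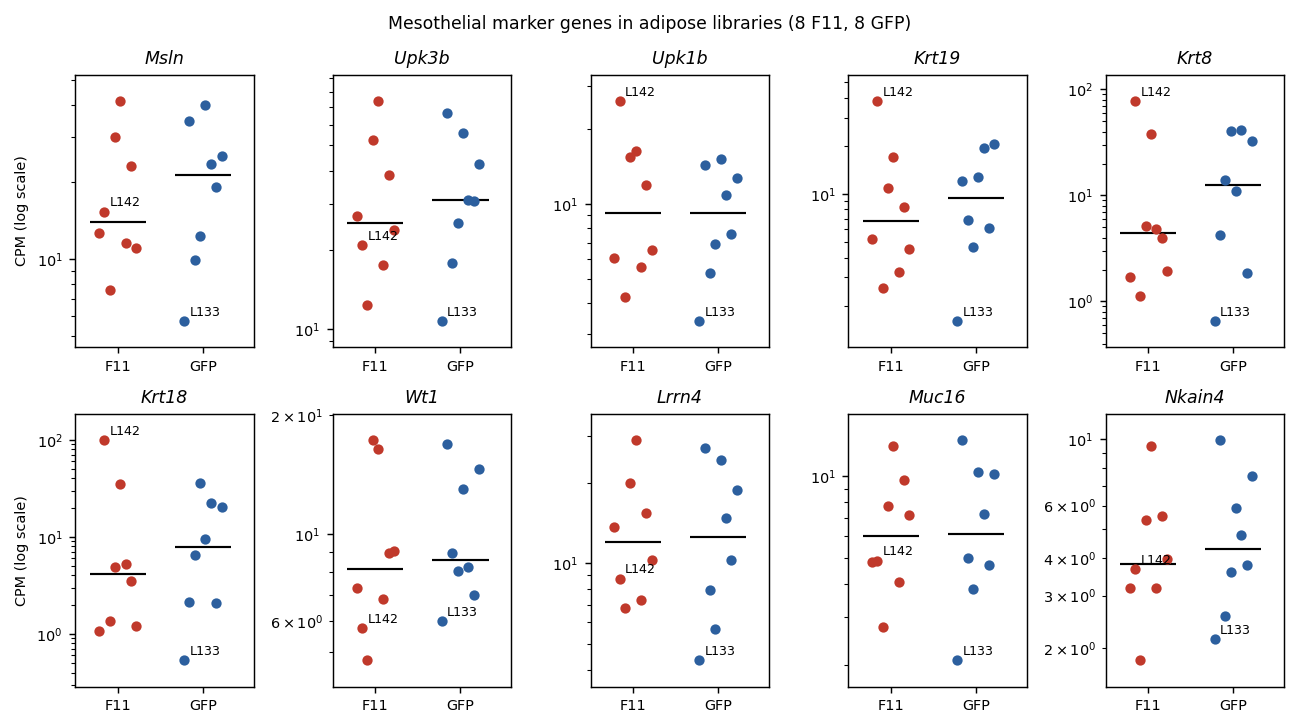
Level of each mesothelial marker gene in the 8 F11 and 8 GFP adipose libraries, 1 point per library, in CPM on a log scale with its own range in each panel; black lines are group medians, and libraries L142 (F11) and L133 (GFP) are named. L142 is highest in the 3 keratins and Upk1b, at 77.9 CPM in Krt8 and 98.9 CPM in Krt18, and L133 is lowest in 8 of 10 markers.

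The vector difference in heart was set against that in adipose tissue in 1 fit over all 4 groups. The difference of the differences, heart minus adipose, was negative for all 10 markers, as for 50.2% of all genes, with a median of -1.09, and none was called, where 0.0242% of 16526 genes were called. As most markers varied together, their shared sign does not make 10 independent results. Upk1b had the lowest p, at -1.42 (SE 0.64, adjusted p = 0.62), followed by Nkain4 at -1.14 (SE 0.58, adjusted p = 0.702). The vector difference was therefore not shown to differ between the tissues for any marker.

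**Figure D3:**
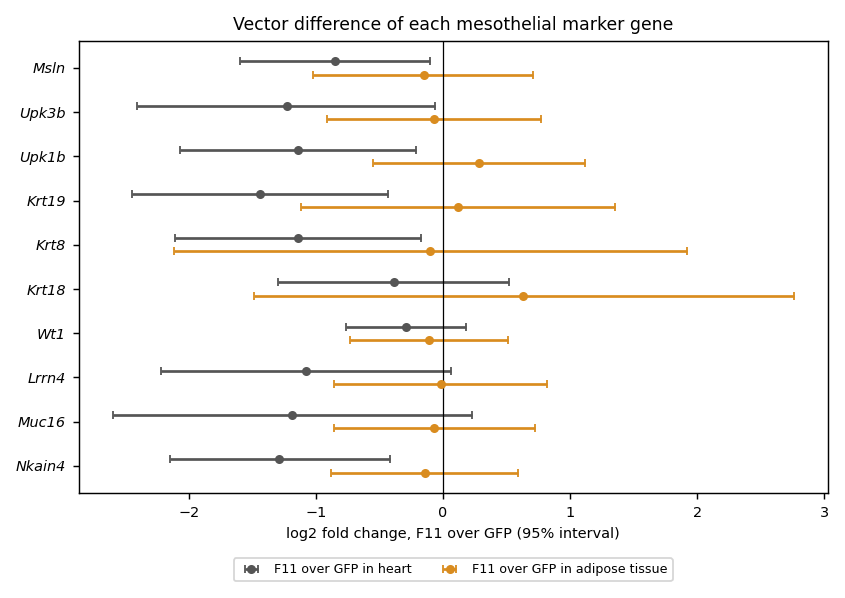
Log2 fold change of F11 over GFP for each mesothelial marker gene in heart (grey) and adipose tissue (orange), with 95% intervals from edgeR's quasi-likelihood fit of each tissue. The heart values run from -1.44 in Krt19 to -0.29 in Wt1, and the adipose interval of Krt18 runs from -1.49 to 2.76.

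Levels in the 2 tissues were compared under GFP, on the common scale of the fit over all 4 groups. On this scale 8 of the 10 markers were higher in adipose tissue than in heart at an adjusted p under 0.05, where 43.4% of all genes were called higher and 36.8% lower. Krt8 averaged 13.5 ± 12.7 CPM in GFP adipose libraries and 0.595 ± 0.31 CPM in GFP hearts (SD, n = 8 and 6), a log2 fold change of 4.49 with SE 1.06 (adjusted p = 0.000365). Upk1b averaged 7.05 ± 3.18 CPM in adipose tissue and 0.93 ± 0.593 CPM in heart, which gave a log2 fold change of 2.92 (adjusted p = 3.04e-06, SE 0.47). Msln averaged 15.7 ± 8.8 CPM in adipose tissue and 3.3 ± 1.7 CPM in heart, a log2 fold change of 2.25 with SE 0.44 (adjusted p = 4.09e-05). Krt18 at 3.23, Krt19 at 2.85, Lrrn4 at 2.25, Upk3b at 2.22 and Nkain4 at 2.16 made up the rest of the 8.

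The exceptions were Wt1 and Muc16. Wt1 averaged 7.67 ± 2.91 CPM in GFP adipose libraries and 7.4 ± 3.45 CPM in GFP hearts, a log2 fold change of 0.05 (SE 0.28, 95% interval -0.52 to 0.63, adjusted p = 0.87). Muc16 averaged 5.28 ± 2.9 CPM in adipose tissue and 2.75 ± 1.74 CPM in heart, which gave a log2 fold change of 0.94 (adjusted p = 0.119, SE 0.55). These calls depend on the scaling between tissues: the median gene stood at 0.11 on the common scale and at 1.04 when libraries were scaled by their totals alone, an alternative added after the data were seen, and on that second scale Wt1 was at 0.99 (adjusted p = 0.0021) and Muc16 at 1.87 (adjusted p = 0.00357), with all 10 called higher. Wt1 thus lay near the median gene on both scales. Among the other mesothelial and epicardial genes, 13 of 19 were called higher in adipose tissue, led by Slpi, a secreted protease inhibitor, at 6.24 (SE 0.53, adjusted p = 1.94e-11), and 3 were called lower, Gata6, a transcription factor of heart and mesoderm, at -3.26, Tcf21 at -1.58 and Podxl at -1.4. Tissue and its preparation cannot be told apart in this comparison.

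Across libraries of 1 tissue, most pairs of markers varied together. The Pearson correlation of log2(CPM + 0.1) was computed for the 45 pairs of markers in each tissue, with permutation p-values adjusted over the 45. The adjusted p was under 0.05 for 34 of 45 pairs in heart (median r 0.76 over all 45) and for 32 of 45 in adipose tissue (median r 0.75 over all 45). In heart Upk3b and Muc16 gave r = 0.96 (permutation p = 1e-05, the smallest that the permutations can give, adjusted p = 0.00011) and rho = 0.95 (adjusted permutation p = 0.00045), with r = 0.89 without the 2 hearts farthest from the median. In adipose tissue Msln and Upk3b gave r = 0.97 (adjusted permutation p = 3.7e-05) and rho = 0.96 (adjusted permutation p = 5.6e-05), with r = 0.95 without the 2 farthest libraries. Pairs with r of at least 0.8 made up 19 of 45 in heart and 18 of 45 in adipose tissue, against 0.184% and 2.12% of all pairs of tested genes. The pairs that did not pass all held Wt1, Krt8 or Krt18. As a description of a subset chosen from these same correlations, the 21 pairs among the other 7 markers had r between 0.75 and 0.96 in heart and between 0.65 and 0.97 in adipose tissue.

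With deviations from the group means in place of the values, the median r over all 45 pairs was 0.74 in heart and 0.75 in adipose tissue. Within 1 group r varied by pair: in adipose tissue Krt19 with Lrrn4 gave 0.46 in F11 and 0.85 in GFP (8 libraries each), and Upk1b with Lrrn4 0.52 in F11 and 0.95 in GFP, pairs given as examples after their values were seen. As a description of the libraries, the mean z-score of the markers was lowest in F11 library L39 (-1.45) and GFP library L8 (-0.97) and highest in GFP library L6 (1.19) among hearts. Among adipose libraries it was lowest in GFP library L133 (-1.64) and F11 library L143 (-1.35) and highest in F11 library L145 (1.33).

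**Figure D4:**
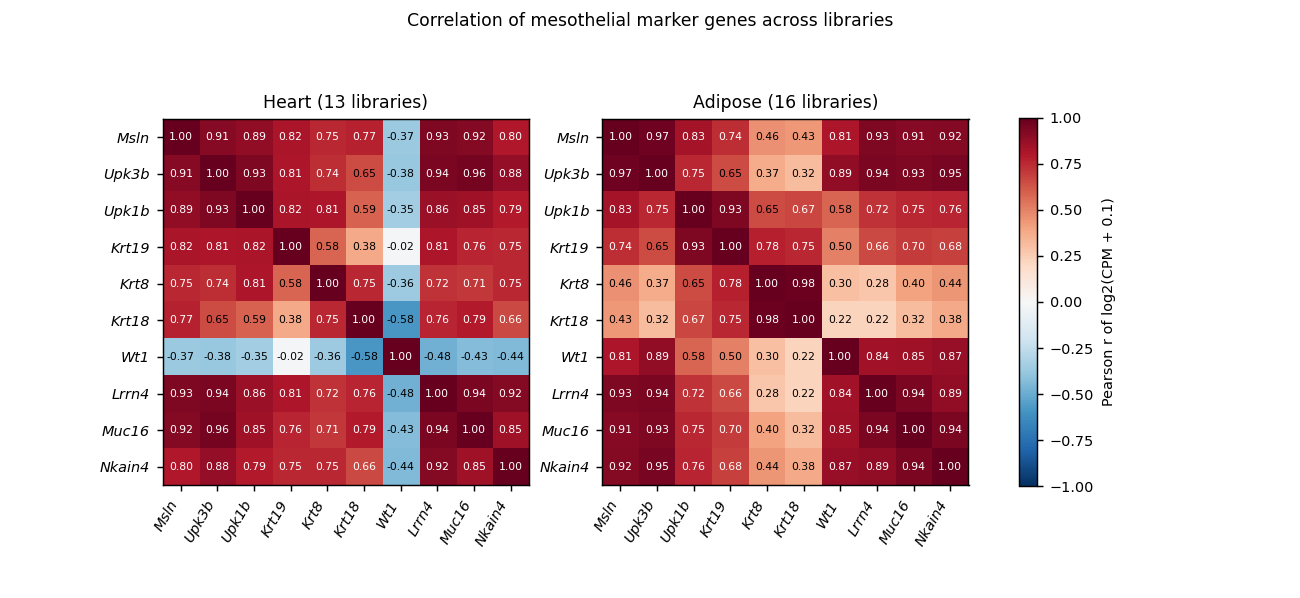
Pearson correlation of log2(CPM + 0.1) for each pair of mesothelial marker genes over the 13 heart libraries (left) and the 16 adipose libraries (right), on a scale of -1 (blue) to 1 (red). Wt1 forms a blue to white row in heart, and Krt8 and Krt18 form a pale block in adipose tissue apart from their own pair at 0.98.

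Wt1 was positively correlated with most of the other markers in adipose tissue, where its r with the other 9 ran from 0.22 to 0.89 (median 0.81), with an adjusted permutation p under 0.05 for 6 of 9 (all but Krt19, Krt8 and Krt18); with Upk3b r was 0.89 (adjusted permutation p = 6.9e-05) and rho 0.84 (adjusted permutation p = 0.00036). In heart all 9 correlations of Wt1 were negative, between -0.58 and -0.02, and none passed. Those values leaned on L8: without it they lay between -0.1 and 0.04. The difference between the tissues was not tested. L8 also held the highest summed endothelial transcripts of the hearts, at 774 CPM, where F11 hearts held 638 to 715 CPM and the lowest GFP heart 611 CPM; the part of these transcripts in its Wt1 level was not tested.

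Krt8 and Krt18, whose genes lie 23697 bases apart on chromosome 15, went together in both tissues. Their r was 0.75 in heart (adjusted permutation p = 0.0043, rho 0.82, adjusted permutation p = 0.003) and 0.98 in adipose tissue (adjusted permutation p = 3.7e-05, rho 0.97, adjusted permutation p = 5.6e-05). Without the 2 farthest libraries r was 0.66 in heart and 0.97 in adipose tissue. With the 7 markers other than Wt1, 12 of 14 correlations of the pair passed in heart (median r 0.73) and 4 of 14 in adipose tissue (median r 0.42). The heart count leaned in part on L8: without it 9 of 14 passed (median r 0.66). The difference between the tissues was not tested. Krt8 with Msln gave r = 0.75 in heart (adjusted permutation p = 0.0061, rho 0.76, adjusted permutation p = 0.0061) and r = 0.46 in adipose tissue (adjusted permutation p = 0.1, rho 0.45, adjusted permutation p = 0.11). Within the heart groups, r of Krt8 with Msln was 0.23 in F11 and 0.96 in GFP, the group that holds L8. For Krt18 with Upk3b these values were 0.24 and 0.92.

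In adipose tissue Krt8 and Krt18 followed markers of other epithelia. The sum of 9 genes, among them Epcam, Cldn7, Elf3 and Krt14, ran from 1.97 to 298 CPM in F11 libraries and from 1.39 to 51.6 CPM in GFP libraries, highest in L142 of F11 and L138 of GFP. None of the 9 was at 0 throughout either group. Krt8 followed this sum over the 16 libraries with r = 0.87 (permutation p = 2e-05, adjusted over 40 relations p = 0.0008) and rho = 0.94 (adjusted permutation p = 0.0002), and r was 0.88 without the 2 farthest libraries. Krt18 gave r = 0.86 (adjusted permutation p = 0.0008) and rho = 0.92 (adjusted permutation p = 0.0002), and Krt19 r = 0.79 (adjusted permutation p = 0.0017) and rho = 0.78 (adjusted permutation p = 0.0064). Msln at r = 0.23 (adjusted permutation p = 0.58, rho 0.43, adjusted p = 0.3) and Upk3b at r = 0.09 (adjusted permutation p = 0.83, rho 0.29, adjusted p = 0.52) did not pass. Hepatocytes also make Krt8 and Krt18; with the summed hepatocyte transcripts Krt8 gave r = 0.38 (adjusted permutation p = 0.41, rho 0.44, adjusted p = 0.3) and Krt18 r = 0.45 (adjusted permutation p = 0.25, rho 0.55, adjusted p = 0.16).

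**Figure D5:**
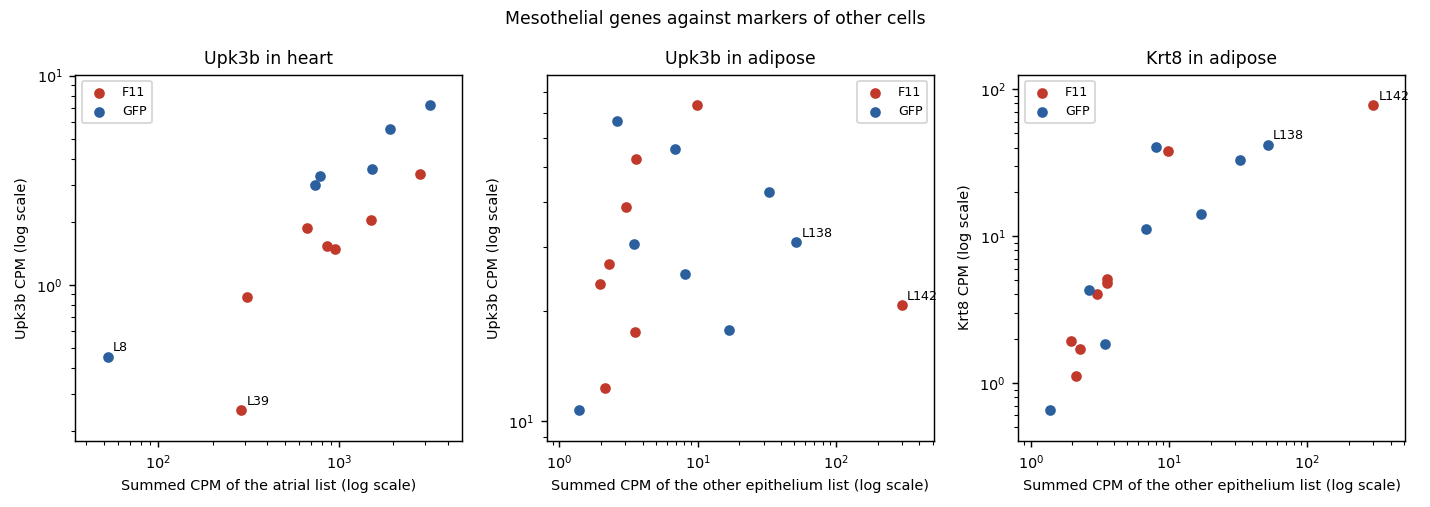
Marker level against the summed CPM of a list of other cells, 1 point per library, both axes in CPM on a log scale, F11 in red and GFP in blue: Upk3b against the atrial list in heart (left), and Upk3b (middle) and Krt8 (right) against the other epithelium list in adipose tissue. Upk3b rises with the atrial sum (r = 0.84) and shows little relation to the epithelial sum (r = 0.09), which Krt8 follows (r = 0.87).

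The genes most like the markers were looked for by the Pearson r of each other gene with the mean z-score of the 10 markers, as a description over libraries that share depth and tissue make-up. Over the 13 hearts these were Cybrd1 at 0.94, Cdon at 0.9, Ctsh and Arl1 at 0.89, and Dpp4, Stk26, Zfp516 and Shisa2 at 0.88. Over the 16 adipose libraries they were Gpm6a at 0.94, Rspo1 at 0.92, Cxadr and Cobl at 0.91, Stk26 and Ppl at 0.9, and Slc39a8 and Bnc1 at 0.89. Stk26, a protein kinase, was in both sets, and Gpm6a, Rspo1 and Bnc1 belonged to the other mesothelial list. That list did not follow as a whole: in heart Gpm6a, Pkhd1l1 and Efemp1 had r of 0.86, 0.84 and 0.83, while Podxl stood at -0.47 and Lrrn4cl at -0.27, and in adipose tissue Aldh1a2, the enzyme that makes retinoic acid, stood at -0.58.

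Promoter windows of 300 bases, 250 before and 50 after the annotated start, were at hand for 5 of the 10 markers, from RefSeq on GRCm38.p6: Upk3b, Lrrn4, Muc16, Krt8 and Krt18. Upk3b and Lrrn4 are shown as markers with high correlations in both tissues, and Krt8 and Krt18 as the pair that spread most widely in adipose tissue. Muc16 had high correlations in both tissues too, with Upk3b at r = 0.96 in heart and 0.93 in adipose tissue. Its window is not shown and held none of the motifs named below, so the choice shown does not relate motifs to correlation. Capitals mark matches to the motif letters named below; sequences run 5′ to 3′ on the gene's strand.
Upk3b, chr5:136038246-136038545, plus strand: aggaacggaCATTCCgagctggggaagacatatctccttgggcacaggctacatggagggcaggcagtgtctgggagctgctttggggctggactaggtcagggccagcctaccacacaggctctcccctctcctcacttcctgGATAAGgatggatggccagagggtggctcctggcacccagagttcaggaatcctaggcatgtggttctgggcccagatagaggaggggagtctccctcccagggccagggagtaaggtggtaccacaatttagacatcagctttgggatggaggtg
Lrrn4, chr2:132880813-132881112, minus strand: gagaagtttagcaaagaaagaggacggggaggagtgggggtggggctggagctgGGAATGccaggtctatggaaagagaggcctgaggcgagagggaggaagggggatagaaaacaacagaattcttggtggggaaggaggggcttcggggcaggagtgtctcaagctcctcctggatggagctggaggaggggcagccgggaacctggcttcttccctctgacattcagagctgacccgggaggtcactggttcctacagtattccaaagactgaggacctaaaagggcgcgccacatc
Krt8, chr15:102004293-102004592, minus strand: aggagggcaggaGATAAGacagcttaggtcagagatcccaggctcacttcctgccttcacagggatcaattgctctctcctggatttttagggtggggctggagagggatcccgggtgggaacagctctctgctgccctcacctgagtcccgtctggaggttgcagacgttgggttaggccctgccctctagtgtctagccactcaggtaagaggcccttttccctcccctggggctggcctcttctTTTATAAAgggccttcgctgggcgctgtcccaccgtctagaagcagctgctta
Krt18, chr15:102027966-102028265, plus strand: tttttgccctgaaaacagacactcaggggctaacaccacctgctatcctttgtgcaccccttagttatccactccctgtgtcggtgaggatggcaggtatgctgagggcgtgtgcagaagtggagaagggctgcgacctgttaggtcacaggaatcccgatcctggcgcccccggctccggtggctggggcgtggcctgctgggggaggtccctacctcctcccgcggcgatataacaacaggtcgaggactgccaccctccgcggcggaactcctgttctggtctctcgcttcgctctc

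Both strands were searched for the TEAD motif GGAATG, the AP-1 motif TGANTCA, the GATA motif GATAAG, the GC box GGGCGG and the TATA box TATAAA. The TEAD letters were found in Upk3b (as CATTCC) and Lrrn4, and in 14.7% of all 32851 windows of the same length. The GATA letters were found in Upk3b and Krt8, and in 7.44% of all windows. Krt8 held TATAAA overlapping its own reverse complement, letters found in 13.6% of all windows. They begin at -1 and -3 from the start used for the window, so they lie across that start. The 5′ end of the Krt8 gene body given below, 102004482, is at another place in the window, so the annotations differ on the start. AP-1 letters, found in 7.81% of windows, and GC box letters, found in 35.7%, were in none of the 5, and Muc16 and Krt18 held none of the 5 motifs. A match describes the letters of a window only. The gene bodies of the windows shown lie at chr5:136038496-136046487 (Upk3b), chr2:132868305-132880891 (Lrrn4), chr15:101996698-102004482 (Krt8) and chr15:102028180-102032027 (Krt18), on GRCm38. The other 6 markers lie at chr2:105126529-105173616 (Wt1), chr2:180934772-180954699 (Nkain4), chr9:18495455-18674530 (Muc16), chr11:100140810-100148665 (Krt19), chr16:38773184-38800328 (Upk1b) and chr17:25748613-25754378 (Msln), on the same build. All 10 are annotated as protein-coding. Krt8 also has a pseudogene, Krt8-ps, with a separate entry in the table, and Nkain4, Muc16 and Krt8 overlap other annotated genes, so reads of these 3 could be shared.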

How the data were processed

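Libraries were made from miRNeasy-purified RNA with a Nugen Universal Plus mRNA kit, per the labels' protocols. The deposited values are estimated counts per gene that the authors made with kallisto 0.46 on GRCm38.p6, per the submitters' processing notes. Not given in the sources used here are the annotation release, the summing of transcripts and the strand setting. Pseudoalignment shares reads between like transcripts, and 30.8% of values were not whole. Of 36558 gene IDs 35856 had a symbol. Of 30 labelled libraries 29 had a column; GFP heart library L10 is not analysed here. No 2 libraries of a group agreed within sampling noise (lowest chi-square per degree of freedom 3.36).

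Counts were rounded, filtered with filterByExpr, scaled by TMM and tested with edgeR 4.0.16 (robust quasi-likelihood, two-sided, Benjamini-Hochberg over all genes) in R 4.3.3, each tissue apart; tissue comparisons used 1 fit over all groups. CPM used TMM factors and unrounded counts. The fit was tested on simulated data: of genes changed 1.25-fold, 1.5-fold, 2-fold and 4-fold it called 44%, 74%, 92% and 100% in heart (14684 genes) and 10%, 38%, 64% and 80% in adipose tissue (15229 genes). These genes were not matched to the markers' low counts, so the shares do not give the power for the markers. Correlations used 100000 permutations. The alternatives were DESeq2 1.42.0, limma 3.58.1 (voom), other filters and scalings, and left-out libraries. A library counted as rich in another tissue's transcripts above 10 times the tissue's median and 20 CPM of a male tract, hepatocyte, exocrine pancreas, intestine or lung list; none did for the last 3.

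The markers and all gene lists were chosen with earlier results of these data known. Named genes are the 10 markers, the 8 genes most like them in each tissue, and, of the other mesothelial list, those called or else the 4 with the lowest p; genes given for a high or low correlation within that list, and libraries named for their position, were chosen after their values were seen.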

Additional observations from a re-analysis of the deposited data

Results flagged for a closer look

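Highest or lowest libraries were compared with the rest of their group for each marker, in 40 groups of 6 to 8 libraries, by the gap to the nearest library over the group's range. For independent, normally distributed values chance singles out about 1 in 20 groups, and 4 of 40 stood out. CPM were used without logarithms and the groups of different markers share libraries, so that rate need not hold here.

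Wt1 in GFP heart library L8 stood at 9.8 CPM, against 3.34 to 5.0 CPM in the other GFP hearts. L8 was also lowest of the GFP hearts in the other 9 markers and in atrial transcripts, and highest in red cell transcripts. Krt18 in F11 heart library L35 stood at 1.12 CPM, against 0.252 to 0.603 CPM in the other F11 hearts. In F11 adipose library L142, Krt18 stood at 98.9 CPM, against 1.08 to 34.8 CPM, and Krt19 at 38.3 CPM, against 2.59 to 17.0 CPM in the other F11 libraries. L142 also held the transcripts of the male reproductive tract.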

How the results depend on the processing

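None of the 10 markers was called between the vectors in heart, and 1 was without L8 (Nkain4), with the atrial covariate and with it without L8 (Upk3b both times), a range of 0 to 1 over left-out libraries. Genes called in heart, 128, came to 377 by DESeq2, 201 by voom, 30 in the fit over all groups, 67 with the atrial covariate without L8, and 87 to 179 with a library left out. Genes called in adipose tissue, 0, came to 6 by DESeq2 and 4 in the fit over all groups. Genes called for the tissue difference, 4, came to 172 by DESeq2 and 1 to 6 with a library left out, most often 1. For these shifts the cause was not tested.

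Several adipose fold changes reversed, Krt18 (0.63) and Upk1b (0.28) among them. By voom Upk1b was -0.01, Krt19 -0.33, Krt18 -0.21 and Lrrn4 0.02. Without the libraries rich in other tissues' transcripts Krt19 was -0.65 and Krt18 -1.76; without L140 too, a choice made after the data were seen, Upk3b was 0, Krt19 -0.44, Krt18 -1.42, Wt1 0.09, Lrrn4 0.01 and Muc16 0.04. Over left-out libraries the adipose ranges were -0.42 to 0.04 for Msln, -0.35 to 0.13 for Upk3b, -0.01 to 0.41 for Upk1b, -0.5 to 0.31 for Krt19, -1.16 to 0.19 for Krt8, -0.73 to 1.09 for Krt18, -0.29 to 0.03 for Wt1, -0.26 to 0.18 for Lrrn4, -0.27 to 0.13 for Muc16 and -0.39 to 0.07 for Nkain4. For the tissue difference they were -1.31 to 0 for Krt8, -1.45 to 0.33 for Krt18 and -0.31 to 0.11 for Wt1, and for Wt1 in adipose over heart -0.08 to 0.34. No call changed in these. In heart no marker changed sign under any alternative run. Of all marker values under alternatives, 1054 kept sign and side of the threshold, 52 changed sign and 5 passed it newly (Upk3b and Nkain4 in heart, Wt1 and Muc16 between tissues by library totals).

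The counts of correlated pairs ran from 30 to 38 in heart and 30 to 33 in adipose tissue. No paired analysis was possible because the groups share no library numbers. Every marker passed the filter, so the permutation test planned for markers outside it gave no result. In heart the precision is limited by low counts: Krt8, Krt18, Krt19, Nkain4 and Upk1b had medians under 20 estimated counts a library.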

Other observations

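The genes most like Krt8 over the 16 adipose libraries, given as a description and chosen after their values were seen, were others than those most like the markers as a set. They were Slc39a4, a zinc transporter, at r = 0.97, Cutal, Perp and Tmem184a at 0.96, Tgfa and Mpzl2 at 0.94, Dsg2 at 0.93 and Ddc at 0.92. Perp and Dsg2 encode parts of desmosomes, the junctions that anchor keratin filaments, Mpzl2 an epithelial adhesion protein and Tgfa a growth factor of epithelia. Perp ranged from 0.416 to 42.9 CPM and Dsg2 from 0.285 to 32.4 CPM over these libraries. Without the 2 libraries farthest from the median, r was 0.95 for Perp and 0.89 for Dsg2.

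The genes most like Wt1 over the 13 hearts, chosen in the same way, were Cdr2 at r = 0.94, Apold1 at 0.93 and Akap12 at 0.92, and their r without the 2 farthest hearts was 0.77, 0.83 and 0.81. Apold1, an endothelial gene, ranged from 6.55 to 21.9 CPM.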
